A study of Homo sapiens with 6 samples.

Results

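Aminoacyl-tRNA synthetases were followed in RNA sequencing of THP-1-derived macrophages after knockdown of the phosphatase DUSP6. The genes were chosen by name: EPRS1, FARSA, FARSB and every row whose symbol is a 1-letter amino acid code followed by ARS. The letter F was left out of these codes, and a final digit was optional. This gave 37 of the 63241 genes in the table, 21 cytosolic and 16 mitochondrial enzymes. The naming rule does not cover FARS2, the mitochondrial phenylalanyl enzyme, which is given once below.

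Each synthetase joins 1 amino acid to its own tRNAs, and the ribosome depends on this step for the accuracy of translation. The cytosolic enzymes serve nuclear-encoded proteins, whereas a separate nuclear-encoded group is imported into mitochondria to serve the few proteins made there. GARS1 and KARS1 each give rise to a cytosolic and a mitochondrial form, and EPRS1 carries the glutamyl and the prolyl activity in 1 chain. Amino acid shortage and endoplasmic reticulum stress are known to raise many cytosolic synthetase genes through the transcription factor ATF4. WARS1, the cytosolic tryptophanyl enzyme, is known in macrophages and other cells as a gene induced by interferon-gamma.

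The macrophages were derived from THP-1, a human leukaemia line of monocytic origin, and were collected 24 h after transfection. The 3 control libraries received a negative control siRNA (siNC; genotype WT in the labels), and the 3 knockdown libraries an siRNA against DUSP6 (siDUSP6; genotype DUSP6 knockdown). For replicates 2 and 3 of siDUSP6 one label, the treatment, names DUSP7 and DUSP8, against DUSP6 in their other labels. Having 1 knockdown group, in 1 cell line, limits the model. No label tells whether a library stands for a culture of its own, so the spread behind the p-values may be technical. DUSP6, a phosphatase of ERK1 and ERK2, stood at 359, 368 and 378 TPM in siNC and at 227, 218 and 222 TPM in siDUSP6. It fell in siDUSP6 (log2 fold change -0.73, SE 0.0267, limma adjusted p = 8.667e-05), so that much of the transcript remained. DUSP7 stood at 49.5, 50.1 and 47.1 TPM in siNC and at 39.6, 39.5 and 37.2 TPM in siDUSP6, and also fell (log2 fold change -0.33, limma adjusted p = 0.0111), a call missed without siNC replicate 1 (0.0535) or 2 (0.0518), without the variance trend (0.0598) and with siDUSP6 replicate 1 alone (0.22), whereas DUSP8 was near 2 TPM or below in every library and was not called (adjusted p = 0.719). The 8 macrophage markers were present in every library, LYZ being the lowest at 11.8 to 16.0 TPM; of 12 markers of other cell types only PECAM1, which monocytes express too, exceeded 5.39 TPM, and 4 were at 0 in all libraries. Levels are given as TPM, shares of a library's transcripts corrected for transcript length, from which sequencing depth cannot be read.

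All 37 synthetases had a mean of at least 1 TPM, the minimum set for testing. Their mean levels over the 6 libraries spanned 121-fold, and the 5 highest genes held 40.2% of their summed TPM. WARS1 was the highest, followed by TARS1, the threonyl enzyme, MARS1, the methionyl enzyme, SARS1, the seryl enzyme, and EPRS1. A mean above 100 TPM was reached by 8 enzymes, all of them cytosolic, and a mean under 10 TPM by 9 enzymes, of which the cytosolic ones were FARSB, the beta subunit of the phenylalanyl enzyme, and TARS3, a second cytosolic threonyl enzyme. FARSB measured 7.93, 8.19 and 7.92 TPM in siNC, against 84.1, 81.7 and 71.1 TPM for FARSA, the alpha subunit of the same enzyme. IARS2, the mitochondrial isoleucyl enzyme, was the only mitochondrial synthetase with a mean above 50 TPM and lay above its cytosolic counterpart IARS1. Together the synthetases held 0.220% to 0.238% of all TPM.

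**Figure D1:**
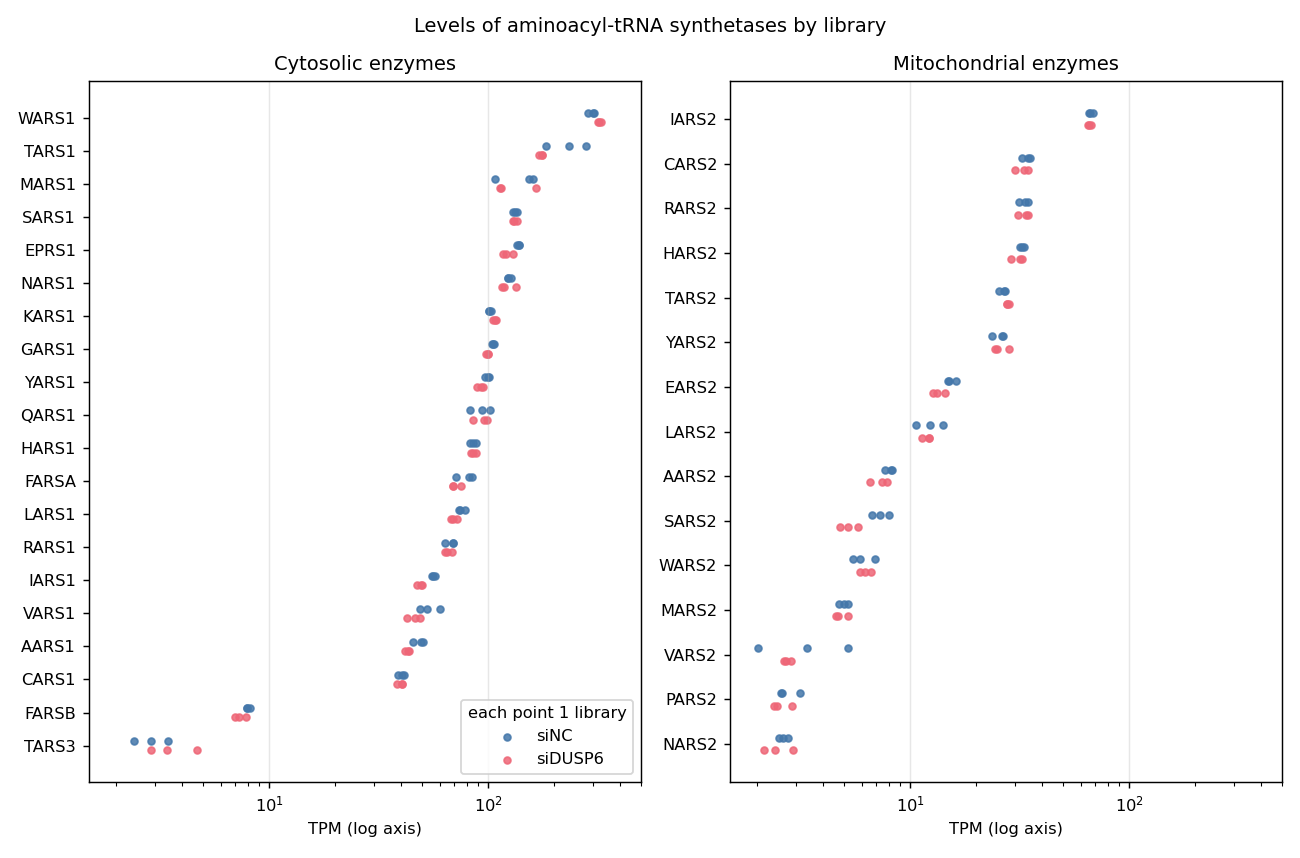
TPM of each synthetase named on a log axis, cytosolic enzymes left and mitochondrial enzymes right, with 1 point per library (siNC blue, siDUSP6 red). WARS1 leads the cytosolic enzymes, FARSB and TARS3 stand apart below 10 TPM, and the libraries of both groups lie close together for nearly every gene.

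Knockdown of DUSP6 left the synthetases with small differences, mostly towards lower levels. In limma's fit across all 14602 genes tested, 1 of the 37 synthetases, or 2.70%, was called at an adjusted p under 0.05, against 3.86% of all genes (346 higher and 218 lower, or 435 and 159 after median-of-ratios scaling). The called gene was IARS1, which was lower. Among all genes 2.37% were called higher and 1.49% lower, so the share of synthetases called was close to the background. The log2 fold change was below 0 for 28 synthetases (75.7%), against 57.9% of all genes, and its median was -0.07, against -0.03 for all genes. After median-of-ratios scaling 24 synthetases lay below 0, with a median of -0.05, against -0.0047 for all genes. Without siNC replicate 1, 23 lay below 0, with a median of -0.04, against -0.02 for all genes. With a pseudocount of 5 TPM the median was -0.03, against -0.02 for all genes. The cytosolic median, -0.08, was -0.04 without siNC replicate 1 or siDUSP6 replicate 2, and the mitochondrial one, -0.06, was -0.04 without siNC replicate 1 and -0.03 without siDUSP6 replicate 3. With all 6 libraries and a pseudocount of 1 TPM, no synthetase differed by more than 0.413 on the log2 scale.

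The same lean appeared before adjustment for multiple testing. At an unadjusted limma p under 0.05, 10 synthetases (27.0%) were lower, against 11.2% of all genes, and 3 (8.11%) were higher, against 8.03%. After median-of-ratios scaling 7 were lower and 3 higher, and without the variance trend 8 and 2. With the replicate block 8 were lower and 1 higher, and with 1 library left out 7 to 10 were lower and 2 higher. The shares of all genes under these alternatives are not given, so these counts cannot be set against a background and do not show whether the lean holds. The groups did not overlap, with every siDUSP6 library lower, for 12 synthetases (32.4%, against 14.9% of all genes), and with every siDUSP6 library higher for 4 (10.8%, against 10.2%). These shares are descriptions with no test of the family as a whole. In bulk RNA a lower level in each cell and fewer cells with that level cannot be told apart.

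**Figure D2:**
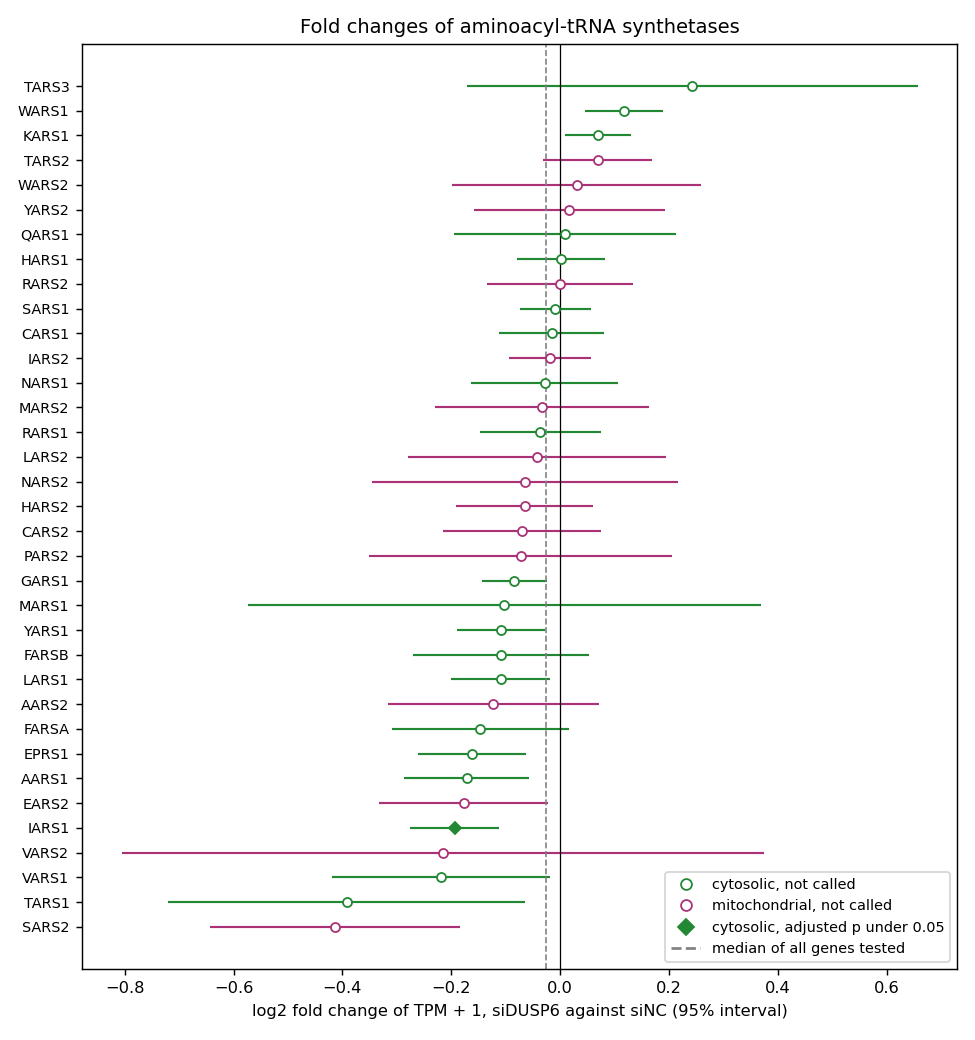
Log2 fold change of TPM + 1 in siDUSP6 against siNC for each synthetase named, with 95% intervals from limma, cytosolic enzymes in green and mitochondrial enzymes in purple. Only IARS1 (filled diamond) passed the adjusted threshold, and most points lie below 0; the dashed line is the median of all genes tested, at -0.03.

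IARS1, the cytosolic isoleucyl enzyme and a component of the multisynthetase complex, lies on the minus strand at chr9:92210207-92293756 (GRCh38, GENCODE 29) and shares exon bases with 0 other genes. It measured 55.4, 57.2 and 56.2 TPM in siNC and 49.6, 50.03 and 47.5 TPM in siDUSP6. All siDUSP6 libraries lay below all siNC libraries. IARS1 fell with a log2 fold change of -0.19 (SE 0.0344, 95% interval -0.276 to -0.112, limma adjusted p = 0.0329). The size of the change was stable, from -0.21 to -0.17 over the alternatives tried, but the call was not: each fit on 5 libraries missed the threshold (adjusted p = 0.0768 to 0.115), as did those without the filter on low genes (0.0528), without limma's variance trend (0.102), with the replicate number as a block (0.117) and with siDUSP6 replicate 1 alone (0.275).

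The start of IARS1 carries a C/EBP-ATF response element, the sequence through which ATF4 is known to act on amino acid response genes. RefSeq windows of 250 bases before to 50 after a gene's start (GRCh38.p14) were held for 29 synthetases, in 37 windows since some genes have more than 1 start, and were searched for TTGCATCA on both strands (reverse complement TGATGCAA). The motif was present in 6 of the 29 genes (20.7%), against 1.08% of 27305 genes, or in 16.2% of windows against 0.866%. All 6 carriers were cytosolic enzymes, 37.5% of the 16 cytosolic genes matched, and 0 of the 13 mitochondrial genes matched had it. Among those not matched were AARS2, LARS1, TARS3, VARS1, VARS2 and YARS1. The 6 carriers are shown to make this shared element and its place visible, from position -90 to 30 (for AARS1 from -210 to -91), 5′ to 3′ on the gene's strand. Position 1 is the start and there is no position 0; capitals mark C/EBP-ATF motifs and, in CARS1, also a gamma-activated site motif that does not overlap the other.
IARS1 at chr9:92293668-92293787, minus strand: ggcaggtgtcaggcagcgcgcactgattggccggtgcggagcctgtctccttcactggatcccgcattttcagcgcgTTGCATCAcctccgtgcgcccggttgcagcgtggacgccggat
TARS1 at chr5:33440875-33440994, plus strand: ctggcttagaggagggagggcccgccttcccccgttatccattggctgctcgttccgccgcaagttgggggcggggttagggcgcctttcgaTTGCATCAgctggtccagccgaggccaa
MARS1 at chr12:57487978-57488097, plus strand: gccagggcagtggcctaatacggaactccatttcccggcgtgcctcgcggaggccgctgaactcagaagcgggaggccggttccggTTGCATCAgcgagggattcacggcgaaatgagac
CARS1 at chr11:3057394-3057513, minus strand: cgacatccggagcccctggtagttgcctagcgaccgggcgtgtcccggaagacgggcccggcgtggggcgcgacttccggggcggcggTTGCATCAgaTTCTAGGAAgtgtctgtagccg
NARS1 at chr18:57621807-57621926, minus strand: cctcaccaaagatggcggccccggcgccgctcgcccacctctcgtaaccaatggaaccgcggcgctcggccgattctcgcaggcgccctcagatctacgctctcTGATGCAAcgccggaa
AARS1 at chr16:70289597-70289716, minus strand: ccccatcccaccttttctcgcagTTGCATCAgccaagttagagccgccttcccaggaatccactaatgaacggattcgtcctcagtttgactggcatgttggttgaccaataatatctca

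In 5 of the 6 genes the motif lay close to the start, beginning at position -13 in IARS1, -4 in MARS1, -2 in CARS1, 3 in TARS1 and 15 in NARS1, where it reads in reverse complement. In AARS1 it began at position -187. CARS1 and TARS1 each have another listed start, whose window does not hold this motif. The log2 fold changes of these genes were -0.39 for TARS1, -0.19 for IARS1, -0.17 for AARS1, the alanyl enzyme, -0.10 for MARS1, -0.03 for NARS1, the asparaginyl enzyme, and -0.02 for CARS1, the cysteinyl enzyme. Only that of IARS1 passed the test, and those of MARS1, NARS1 and CARS1 changed sign under at least 1 alternative. A motif match describes the letters in the window and no binding was measured.

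The other cytosolic enzymes with lower values did not pass the test, although several had groups that did not overlap. TARS1, on the plus strand at chr5:33440696-33469539, measured 281, 184 and 233 TPM in siNC and 175, 177 and 171 TPM in siDUSP6. Its siNC libraries were far more spread than its siDUSP6 libraries, and the lowest of them lay just above the siDUSP6 values. The log2 fold change was -0.39 (SE 0.138, limma adjusted p = 0.189), and it was -0.25 without siNC replicate 1 and -0.55 without siNC replicate 2, where it passed (adjusted p = 0.0348, against 0.0348 to 0.571 over all alternatives). EPRS1 measured 135, 139 and 139 TPM in siNC and 121, 131 and 117 TPM in siDUSP6 (log2 fold change -0.16, limma adjusted p = 0.0922). It passed only without siDUSP6 replicate 2, its highest knockdown library (adjusted p = 0.0458, against 0.0458 to 0.223 over all alternatives).

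AARS1 had 50.2, 49.6 and 45.4 TPM in siNC and 43.2, 41.6 and 43.7 TPM in siDUSP6, with no overlap (log2 fold change -0.17, limma adjusted p = 0.113). VARS1, the valyl enzyme, had 49.1, 60.0 and 52.4 TPM in siNC and 42.5, 49.0 and 46.6 TPM in siDUSP6, where the closest libraries of the groups nearly touched (log2 fold change -0.22, limma adjusted p = 0.223). GARS1, the glycyl enzyme, was among the tightest genes, with 105, 107 and 105 TPM in siNC against 100.2, 100.01 and 97.7 TPM in siDUSP6. Its groups were apart although the difference was small (log2 fold change -0.08, limma adjusted p = 0.131). YARS1, the tyrosyl enzyme (log2 fold change -0.11, adjusted p = 0.148), LARS1, the leucyl enzyme known also as a leucine sensor upstream of mTORC1 (-0.11, adjusted p = 0.186), and FARSB (-0.11, adjusted p = 0.445) completed the cytosolic genes whose siDUSP6 libraries all lay below siNC in TPM, with adjusted p from the same limma fit.

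WARS1, on the minus strand at chr14:100333788-100376805, went the other way. It measured 285, 301 and 305 TPM in siNC and 319, 328 and 318 TPM in siDUSP6, so that all knockdown libraries lay above all controls. The log2 fold change was 0.12 (SE 0.03, 95% interval 0.046 to 0.189), or 8.48% in mean TPM, and did not pass the test over all genes (limma adjusted p = 0.0909). It stayed between 0.09 and 0.14 over all alternatives, with adjusted p from 0.0608 to 0.441. As a share of the summed TPM of all synthetases, WARS1 held 12.0%, 13.2% and 13.3% in siNC and 14.5%, 14.9% and 14.3% in siDUSP6. That sum was itself lower in siDUSP6, with a mean of 2209 TPM against 2319 TPM in siNC. A part of the rise in share therefore comes from the sum and not from WARS1. Among the other 20 cytosolic enzymes the median log2 fold change was -0.09, and 15 of them lay below 0 (75%, against 57.9% of all genes).

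RefSeq lists more than 1 start for WARS1, and the windows differ in the motifs they hold. The downstream window, at chr14:100375298-100375597, contains an interferon-stimulated response element (GAAA, any 2 bases, GAAA, on either strand) beginning at position -55 and a gamma-activated site (TTCNNNGAA, its own reverse complement) beginning at position -142. The upstream window, at chr14:100376278-100376577, holds none of the 3 motifs searched. The first motif was found in 4.38% and the second in 9.38% of all genes. Both kinds of start are shown from position -90 to 30, with the interferon motif in capitals in the first and no capitals in the second.
WARS1 at chr14:100375318-100375437, minus strand: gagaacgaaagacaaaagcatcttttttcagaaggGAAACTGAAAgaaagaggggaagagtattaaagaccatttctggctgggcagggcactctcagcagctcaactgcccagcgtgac
WARS1 at chr14:100376298-100376417, minus strand: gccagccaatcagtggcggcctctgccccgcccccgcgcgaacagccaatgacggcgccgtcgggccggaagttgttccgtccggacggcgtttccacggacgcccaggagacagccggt

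Of the other synthetases, EARS2, the mitochondrial glutamyl enzyme, held the interferon-stimulated motif, and CARS1, TARS1, PARS2, the mitochondrial prolyl enzyme, and WARS2, the mitochondrial tryptophanyl enzyme, held the gamma-activated motif. WARS2 measured 5.49, 6.88 and 5.92 TPM in siNC and 6.20, 6.62 and 5.87 TPM in siDUSP6, with overlapping groups (log2 fold change 0.03, limma adjusted p = 0.904). None of the values of WARS1 can be assigned to 1 of its starts, since the table gives genes and not transcripts.

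KARS1, the lysyl enzyme, also had every siDUSP6 library above every siNC library. KARS1 measured 103, 101 and 101 TPM in siNC and 105, 109 and 107 TPM in siDUSP6 (log2 fold change 0.07, SE 0.0256, limma adjusted p = 0.206). KARS1 belongs to the multisynthetase complex, as IARS1, EPRS1 and LARS1 do, so its members did not share a direction.

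The multisynthetase complex is an assembly of cytosolic synthetases held together by scaffold proteins. Of its 8 synthetases 1, IARS1, was lower at the adjusted threshold (12.5%, against 1.49% of all genes) and 7 were not called. The median log2 fold change in the complex was -0.07. For the 13 cytosolic synthetases outside it the median was -0.08, with 0 called by limma. At an unadjusted limma p under 0.05, 1 of the 13 was higher (7.69%, against 8.03% of all genes) and 5 were lower (38.5%, against 11.2%). Of the 8 in the complex 2 were higher (25%) and 3 lower (37.5%) at that threshold, so the share lower was alike inside and outside it. QARS1, the glutaminyl enzyme, and RARS1, the arginyl enzyme, which belong to the complex with MARS1, had log2 fold changes of 0.01 and -0.04. The scaffold genes measured lower without passing: EEF1E1 had 30.4 ± 3.07 TPM in siNC and 26.1 ± 0.936 TPM in siDUSP6 (SD, n = 3; log2 fold change -0.21, limma adjusted p = 0.195), and AIMP2 had 21.2 ± 0.13 and 19.9 ± 1.53 TPM (limma adjusted p = 0.48).

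By catalytic class, the 9 cytosolic class I enzymes had a median log2 fold change of -0.10 and the 11 class II enzymes one of -0.03, with EPRS1, which holds a domain of each, left out. In class I only IARS1 was called (11.1%, against 3.86% of all genes), and in class II none was. At an unadjusted limma p under 0.05, 1 of class I was higher (11.1%, against 8.03% of all genes) and 4 were lower (44.4%, against 11.2%). Of class II 2 were higher (18.2%) and 3 were lower (27.3%). Among 11 cytosolic synthetases listed as responsive to ATF4, 1 was called lower (9.09%, against 1.49% of all genes). Of the 11, 10 lay below 0 (90.9%, against 57.9% of all genes), WARS1 being the exception, and the median was -0.10. Of the 10 cytosolic enzymes not listed so, 5 lay below 0 (50%), with a median of -0.02. These counts of signs were not stable. Among the listed enzymes SARS1 (-0.01), CARS1 (-0.02), NARS1 (-0.03) and MARS1 (-0.10) changed sign under at least 1 alternative, SARS1 and CARS1 after median-of-ratios scaling among others. Among those not listed HARS1, QARS1 and TARS3 did so.

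**Figure D3:**
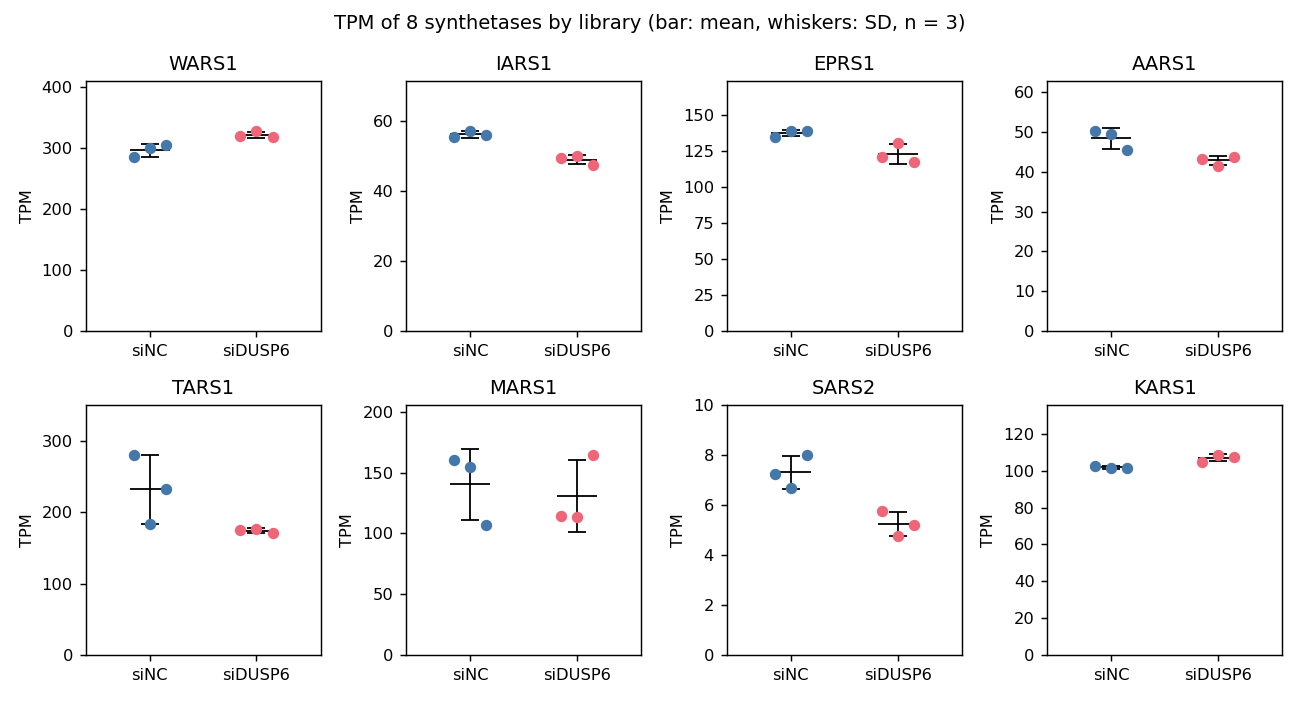
TPM of 8 synthetases in each library, with the mean (bar) and SD (whiskers) of 3 libraries per group; each axis starts at 0. IARS1 is lower and WARS1 higher in every siDUSP6 library, by amounts that are small beside their levels, while MARS1 sits at 2 levels within each group.

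MARS1 was the most variable of the abundant synthetases. It measured 160, 154 and 107 TPM in siNC and 114, 113 and 165 TPM in siDUSP6, so that in each group the libraries lay at 2 separate levels. The log2 fold change of -0.10 had a 95% interval from -0.573 to 0.368 (limma adjusted p = 0.833), and it was 0.0022 without siNC replicate 1. MARS1 shares 355 exon bases with DDIT3, a stress-induced transcription factor gene on the opposite strand, and 519 with ARHGAP9. DDIT3 did not follow the MARS1 levels, with 93.6, 91.5 and 92.3 TPM in siNC and 102, 101 and 103 TPM in siDUSP6, and rose (log2 fold change 0.14, limma adjusted p = 0.0364), a call that no fit on 5 libraries kept (adjusted p = 0.0871 to 0.122). Whether reads were assigned by strand is not given in the sources used here, so both genes are uncertain to that extent.

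Several cytosolic enzymes had intervals that leave room for small changes only. SARS1 measured 135, 133 and 130.2 TPM in siNC and 135, 129.6 and 131 TPM in siDUSP6 (log2 fold change -0.01, 95% interval -0.074 to 0.056). HARS1, the histidyl enzyme, had 85.5, 82.8 and 88.2 TPM in siNC and 87.6, 85.2 and 83.9 TPM in siDUSP6 (0.0013, interval -0.080 to 0.083), and CARS1 39.6 ± 1.19 TPM in siDUSP6 against 40.0 ± 1.13 TPM in siNC (-0.02, interval -0.112 to 0.080). In all, 19 of the 37 synthetases had 95% intervals within 0.25 of 0 on the log2 scale. NARS1 and FARSA had log2 fold changes of -0.03 and -0.15, and TARS3 one of 0.24 at 2.41 to 4.70 TPM (limma adjusted p = 0.84, 0.306 and 0.511).

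Of the 16 mitochondrial synthetases none was called by limma, 2 were lower (12.5%, against 11.2% of all genes) and 0 higher at an unadjusted p under 0.05, and 13 lay below 0 (81.2%, against 57.9%). The share lower at the unadjusted threshold was thus near the background, whereas the share below 0 was above it. Their median log2 fold change was -0.06, and their median level was 13.3 TPM, against 85.5 TPM for the cytosolic enzymes. SARS2, the mitochondrial seryl enzyme, on the minus strand at chr19:38915266-38930896, measured 7.24, 6.67 and 8.02 TPM in siNC and 5.75, 4.77 and 5.20 TPM in siDUSP6, all below the controls. The log2 fold change was -0.41 (SE 0.0964, 95% interval -0.643 to -0.183) and did not pass (limma adjusted p = 0.0732, against 0.0657 to 0.437 over all alternatives). The gene is uncertain, because 46.2% of its exon bases are shared with a read-through gene on the same strand, listed at 0 in every library, and 10.8% with MRPS12 on the opposite strand. MRPS12, a mitochondrial ribosomal protein gene, measured 19.1, 18.3 and 19.7 TPM in siNC and 18.8, 17.8 and 20.9 TPM in siDUSP6, with overlapping groups.

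EARS2 had 16.1, 14.9 and 14.98 TPM in siNC and 13.3, 12.7 and 14.4 TPM in siDUSP6, without overlap (log2 fold change -0.18, limma adjusted p = 0.205). TARS2, the mitochondrial threonyl enzyme, was the mitochondrial gene with every siDUSP6 library higher, at 27.0, 25.4 and 26.8 TPM in siNC and 27.5, 28.1 and 27.6 TPM in siDUSP6 (log2 fold change 0.07, limma adjusted p = 0.434). Of the 16 mitochondrial enzymes 3 had every siDUSP6 library lower (18.8%, against 14.9% of all genes) and 1 had every one higher (6.25%, against 10.2%). These shares were near the background. Groups overlapped for the other 12 mitochondrial enzymes. Of these, VARS2 varied most, with 5.18, 2.01 and 3.36 TPM in siNC and 2.64, 2.70 and 2.85 TPM in siDUSP6, and shares 22% of its exon bases with GTF2H4 on the same strand. FARS2, outside the naming rule, measured 3.06 ± 0.497 TPM in siNC and 3.68 ± 0.438 TPM in siDUSP6 (SD, n = 3; log2 fold change 0.21, limma adjusted p = 0.448).

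Summed over the 21 cytosolic enzymes, the level was 2080, 1990 and 1996 TPM in siNC and 1909, 1924 and 1935 TPM in siDUSP6, 4.93% lower in the mean. Over the 16 mitochondrial enzymes it was 303, 295 and 290.0 TPM in siNC and 288, 286 and 285 TPM in siDUSP6, 3.25% lower. In both compartments every knockdown library lay below every control library. Much of the gap lay in TARS1: without it all synthetases summed to 2102, 2102 and 2053 TPM in siNC and to 2023, 2033 and 2049 TPM in siDUSP6, where the closest libraries were 2053 and 2049 TPM.

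Within each library the cytosolic and the mitochondrial enzyme for the same amino acid were set against each other as log2((cytosolic TPM + 1)/(mitochondrial TPM + 1)), which does not rest on the library total. There were 16 such pairs, with EPRS1 standing for glutamate and for proline. In siDUSP6 the ratio was lower for 9 and higher for 7, with a median difference of -0.02, so the compartments did not part in 1 direction. The smallest p that an exact permutation test (two-sided) can reach with 3 libraries a group is 0.1. That value was reached by 4 pairs, each at an exact permutation p of 0.4 when adjusted over the 16 pairs, so no pair passed.

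Among these 4 pairs were those of threonine, serine and isoleucine. The log2 ratio of TARS1 to TARS2 was 3.33, 2.81 and 3.08 in siNC and 2.63, 2.61 and 2.59 in siDUSP6, and that of SARS1 to SARS2 was 4.04, 4.13 and 3.86 in siNC and 4.33, 4.50 and 4.41 in siDUSP6. In threonine the ratio was lower and in serine higher in every siDUSP6 library. For IARS1 to IARS2 it was -0.24, -0.25 and -0.23 in siNC and -0.43, -0.38 and -0.44 in siDUSP6, since IARS2 hardly differed (log2 fold change -0.02) where IARS1 fell. For WARS1 to WARS2 the groups overlapped, at 5.46, 5.26 and 5.47 in siNC and 5.48, 5.43 and 5.54 in siDUSP6 (exact permutation p = 0.4, adjusted p = 0.711).

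Genes that work beside the synthetases showed little. Mitochondria lack a glutaminyl enzyme of their own and reach that charged tRNA through the GatCAB amidotransferase, encoded by QRSL1, GATB and GATC, while MTFMT formylates the initiator methionyl-tRNA. None of these 4 genes was called by limma, and the nearest were MTFMT, at 15.1 ± 0.656 TPM in siNC and 12.9 ± 0.476 TPM in siDUSP6 (SD, n = 3; log2 fold change -0.21, adjusted p = 0.103), and QRSL1 (-0.11, adjusted p = 0.326). Of 5 editing and deacylation genes and 4 selenocysteinyl-tRNA genes none was called by limma, with 0 in either list at an unadjusted p under 0.05. AARSD1 had a log2 fold change of -0.17, and SECISBP2 and PSTK ones of 0.12 and -0.39. Of 7 genes for tRNA export and elongation 1 was called (14.3%, against 3.86% of all genes): EEF1G, a subunit of the factor that recharges EEF1A1 with GTP, fell (769 ± 5.56 TPM in siNC, 732 ± 3.65 TPM in siDUSP6; log2 fold change -0.07, limma adjusted p = 0.0489). No fit on 5 libraries kept that call (adjusted p = 0.112 to 0.155), nor did median-of-ratios scaling (0.132).

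Genes of the wider amino acid response went both ways. Of 27 tested members of an ATF4 amino acid response list 4 rose (14.8%, against 2.37% of all genes) and 1 fell (3.7%, against 1.49%), with a median log2 fold change of -0.02. SLC7A11, the cystine-glutamate exchanger, rose (46.5 ± 0.681 TPM in siNC, 62.5 ± 1.47 TPM in siDUSP6; SD, n = 3; log2 fold change 0.42, limma adjusted p = 0.00157). ATF3, a stress-induced transcription factor, rose from 399.6 ± 7.66 to 442 ± 6.07 TPM (adjusted p = 0.0174), and CEBPB, a partner of ATF4 in binding such elements, from 113 ± 2.48 to 127 ± 3.79 TPM (adjusted p = 0.0398); DDIT3 was the other called rise. PSAT1, the transaminase of serine synthesis, fell (15.3 ± 0.11 TPM in siNC, 11.6 ± 0.844 TPM in siDUSP6; log2 fold change -0.38, limma adjusted p = 0.0276). ATF4 itself, named after its values were seen, had 268 ± 7.18 and 264 ± 6.87 TPM (log2 fold change -0.02, adjusted p = 0.772). The fits on 5 libraries kept the SLC7A11 call, whereas each of them lost those of PSAT1 and CEBPB (adjusted p up to 0.0978 and 0.127) and 5 of the 6 lost that of ATF3 (up to 0.0722).

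WARS1 charges tRNA with tryptophan, which other enzymes break down along the kynurenine pathway. Of 9 tested tryptophan catabolism genes 3 rose (33.3%, against 2.37% of all genes) and 0 fell. The list went both ways: 5 of the 9 lay below 0 (55.6%, against 57.9% of all genes), with a median log2 fold change of -0.05. TDO2, a dioxygenase that opens the tryptophan ring, rose (1578 ± 26.9 TPM in siNC, 1854 ± 26.9 TPM in siDUSP6; SD, n = 3; log2 fold change 0.23, limma adjusted p = 0.00145). KYNU, kynureninase, rose from 110.3 ± 5.76 to 142 ± 3.49 TPM (log2 fold change 0.36, adjusted p = 0.00768), and KMO, kynurenine monooxygenase, from 8.68 ± 0.684 to 12.0 ± 1.08 TPM (log2 fold change 0.43, adjusted p = 0.0492). No fit on 5 libraries kept the KMO call (adjusted p = 0.0668 to 0.141), all 6 kept those of TDO2 and KYNU, and these went where the variance trend was left out (0.0655 for TDO2 and 0.0626 for KYNU).

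Beside WARS1, 7 of 20 tested interferon-gamma-inducible genes rose (35%, against 2.37% of all genes) and 1 fell (5%, against 1.49%), with a median log2 fold change of 0.24, which is above the 0.12 of WARS1. CXCL10, a chemokine, rose (217 ± 2.74 TPM in siNC, 322 ± 2.04 TPM in siDUSP6; SD, n = 3; log2 fold change 0.56, limma adjusted p = 6.8e-05). GBP5 and GBP1, guanylate-binding proteins, had log2 fold changes of 0.52 and 0.48 (adjusted p = 0.0158 and 0.00337), and CXCL11, another chemokine, one of 0.41 (adjusted p = 0.0161). The gene that fell, named after its values were seen, was CD74, the invariant chain of MHC class II, with 292 ± 3.83 TPM in siNC and 270 ± 4.81 TPM in siDUSP6 (adjusted p = 0.0426); no fit on 5 libraries kept this call (0.0856 to 0.136), nor did median-of-ratios scaling (0.102). None of the fits on 5 libraries kept the GBP5 call (adjusted p = 0.05004 to 0.0639), and 3 of them lost that of CXCL11 (up to 0.0659). These genes and the synthetases were read from the same 6 libraries, so the lists are set side by side and their relation was not tested.

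**Figure D4:**
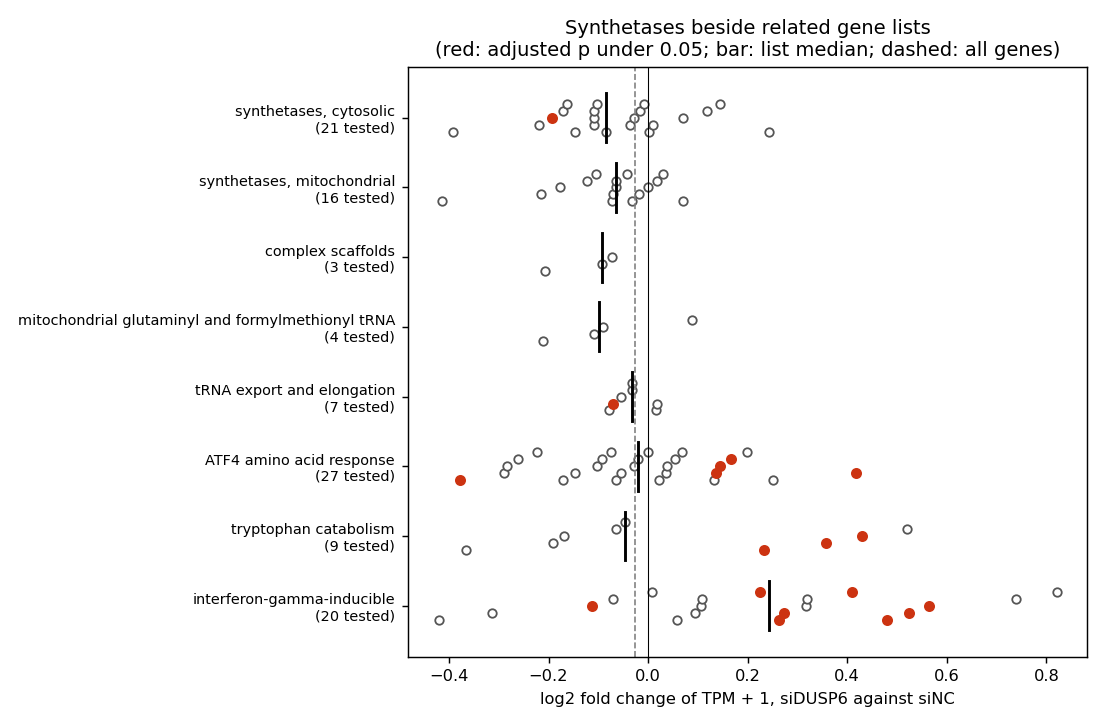
Log2 fold change of TPM + 1 in siDUSP6 against siNC for each tested gene of the synthetase groups and 6 related lists, 1 point per gene, red where the limma adjusted p was under 0.05, with a bar at each list's median and a dashed line at the median of all genes. The synthetases sit in a narrow band around their medians of -0.08 and -0.06, whereas the interferon-gamma-inducible genes have a median of 0.24 and 8 called members.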

How the data were processed

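The values the authors deposited are TPM, 1 column for each of 6 libraries, and the kit used on the total RNA was a stranded one for mRNA, per the labels' protocols. Named in the submitters' processing notes, without versions, are fastp, HISAT2, StringTie and GRCh38; the annotation release is not given in the sources used here. TPM keep no depth, so no counting interval is given, and a change in abundant transcripts shifts the others. Gene rows without an ID (21) were left out, and 0 columns of samples were unused.

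Values were analysed as log2(TPM + 1) with limma 3.58.1 (R 4.3.3): group was the only term, variances followed a trend, a gene's mean over the 6 libraries had to reach 1 TPM (14602 genes), tests were two-sided, with Benjamini-Hochberg adjustment over all of them and calls at 0.05. Fold changes on this scale understate those of low genes. Cytosolic to mitochondrial ratios had an exact permutation test. The fit was tried on data simulated from its own means and variances with independent normal noise. Such data meet the assumptions of the fit, so they cannot show whether the real libraries do. Groups came from the sample titles.

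The synthetases and lists were chosen with earlier results of these data known. Every synthetase could be named, although the values of a few genes are not reported here; from each other list up to 4 called genes, ranked by the size of their change, or without calls the 2 lowest in p; and DUSP6, DUSP7 and DUSP8. Alternatives were pseudocounts of 0.1 and 5 TPM, a minimum mean of 5 TPM or none, scaling by median of ratios, quantile normalization, no or a robust variance trend, the replicate number as a block, each library left out, and siDUSP6 replicate 1 alone.

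Coordinates and shared exon bases came from GENCODE 29 (GRCh38), where all 37 gene IDs were found and 21 shared exon bases with another gene; promoter windows are RefSeq's, with the motif search in Python 3.11.15 and pandas 2.3.3. Of 14 pseudogenes named after synthetases, CARSP2 reached 6.98 TPM and the others at most 0.07 TPM.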

Additional observations from a re-analysis of the deposited data

How the results depend on the processing

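The 37 synthetases had 0 calls higher under every alternative. The 1 call lower became 0 with no filter, without the variance trend, with the replicate block and with siDUSP6 replicate 1 alone, and ranged from 0 to 1 when 1 library was left out; it was TARS1 without siNC replicate 2 and EPRS1 without siDUSP6 replicate 2. Calls among all genes were 106 higher and 18 lower without the variance trend, 101 and 20 with the replicate block, 44 and 5 with siDUSP6 replicate 1 alone, 165 to 192 higher and 57 to 79 lower with 1 library left out, and 114 lower with no filter. In the 8 other lists, with 14 higher and 3 lower, they were 5 and 0 without the variance trend, 7 and 0 with the replicate block, 1 and 0 with siDUSP6 replicate 1 alone, 8 to 10 and 0 to 1 with 1 library left out, 0 lower with no filter and 1 lower after median-of-ratios scaling. The causes were not tested.

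The replicate numbers showed no sign of pairing the libraries: deviations of same-numbered libraries correlated at 0.0252, -0.0365 and 0.0480 across genes. Those of differently numbered libraries correlated at -0.0653 to 0.0416. Such values cannot settle whether the libraries were prepared in pairs. The block lowered the count of calls and ended that of IARS1 (adjusted p = 0.117).

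Some log2 fold changes changed sign without passing. Most of these were near 0 in the main fit, but those of TARS3 (0.24), VARS2 (-0.22) and MARS1 (-0.10) were not. After median-of-ratios scaling SARS1 was 0.0141, IARS2 0.00457, CARS1 0.00697, RARS2 0.0222 and ATF4 0.00351, and after quantile normalization RARS2 was 0.0157. With siDUSP6 replicate 1 alone SARS1 was 0.0239, IARS2 0.00994, CARS1 0.0089, NARS1 0.103, CARS2 0.00996, YARS2 -0.0592, RARS2 0.0325, QARS1 -0.114, TARS3 -0.00119 and ATF4 0.0230. With 1 library left out the ranges were -0.137 to 0.0501 for LARS2, -0.0255 to 0.00355 for SARS1, -0.0372 to 0.0089 for CARS1, -0.0318 to 0.108 for WARS2, -0.0936 to 0.0127 for NARS1, -0.477 to 0.0417 for VARS2, -0.148 to 0.00586 for NARS2, -0.0465 to 0.0553 for YARS2, -0.0388 to 0.0432 for RARS2, -0.286 to 0.00219 for MARS1, -0.0212 to 0.0237 for HARS1 and -0.0698 to 0.0770 for QARS1. Of the cytosolic to mitochondrial ratios, EPRS1 to EARS2 differed by -0.0170 with a pseudocount of 5 TPM and VARS1 to VARS2 by 0.0330 with 0.1 TPM; with 1 library left out the differences ranged from -0.0124 to 0.0934 for CARS1 to CARS2, -0.0666 to 0.0953 for EPRS1 to EARS2, -0.167 to 0.0559 for LARS1 to LARS2, -0.275 to 0.0648 for MARS1 to MARS2, -0.0422 to 0.145 for NARS1 to NARS2, -0.0835 to 0.0209 for RARS1 to RARS2 and -0.324 to 0.337 for VARS1 to VARS2. Every other synthetase kept its direction under all alternatives that kept the gene, among them WARS1, SARS2, TARS1, EPRS1, AARS1 and KARS1. With siDUSP6 replicate 1 alone, that library is assumed to vary as the siNC libraries do.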
